A study of Homo sapiens with 40 samples.

Results

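The genes of HLA class I antigen presentation were examined for the histone mark H3K27ac and the DNA-binding protein CTCF in EndoC-βH3, an immortalized line of human pancreatic beta-like cells of fetal origin. The 9 genes were HLA-B, HLA-C, HLA-E, HLA-F, B2M, TAP1, TAP2, PSMB9 and NLRC5, of 20020 protein-coding genes in the GENCODE 44 annotation. Peaks were assigned to a gene when any base lay within 2 kb of a start site of its protein-coding transcripts (promoter), when they lay inside the gene (gene body), or when a start site of the gene was the closest of all within 100 kb (nearest). This gave 10 of 51489 H3K27ac peaks and 21 of 51457 CTCF peaks. HLA-B, HLA-C and HLA-F had no H3K27ac peak by any of these rules, and the only H3K27ac peak of TAP1 lay at the far end of its gene body.

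Each mark was compared between 3 libraries of senescent and 3 libraries of non-senescent cells. All cells carried an excisable immortalizing transgene, encoding SV40 large T antigen and telomerase, and a tamoxifen-activated Cre recombinase. The senescent groups had been treated with 4-hydroxytamoxifen (4-OHT) for 3 weeks, which removes the transgene, and the non-senescent groups were untreated controls. The groups thus differed both in the agent and in the transgene, and the effects of these cannot be told apart. The labels give the same line, a wild-type genotype and no cytokine for every library used here. They do not say whether replicate libraries came from separate cultures, so the p-values measure the spread between these libraries, which may be technical.

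HLA class I molecules sit on the surface of nearly all nucleated cells and show peptides from inside the cell to CD8+ T cells. The heavy chain, encoded by HLA-B, HLA-C and other HLA genes, folds with beta-2 microglobulin, the product of B2M. Peptides are cut by the proteasome, whose interferon-induced form contains the subunits encoded by PSMB9 and PSMB8, and are pumped into the endoplasmic reticulum by the transporter made of TAP1 and TAP2. NLRC5 is the transactivator of class I genes and acts at their promoters together with the RFX, CREB and NF-Y factors, while interferon acts through interferon-stimulated response elements. In beta cells, raised class I is known from islets of people with type 1 diabetes.

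Promoter sequences are shown to place the peaks against the elements through which class I genes are known to be controlled. They are the 250 bases before the RefSeq start site (GRCh38.p14, 5′ to 3′ along the gene), and 7 of the 9 genes were matched in the RefSeq table, with HLA-E and NLRC5 unmatched. Capitals mark matches, on either strand, to GAAANNGAA (core of the interferon-stimulated response element) or GGGNNTTCC (a short form of the NF-kappaB site). They also mark, on either strand, TGACG (CREB, in the X2 box) and CCAAT (NF-Y). Neighbouring matches to GAAANNGAA overlap and run together in B2M and TAP1. The first pair of sequences lies inside an H3K27ac peak, and the other four do not.
B2M, chr15:44711267-44711516, plus strand: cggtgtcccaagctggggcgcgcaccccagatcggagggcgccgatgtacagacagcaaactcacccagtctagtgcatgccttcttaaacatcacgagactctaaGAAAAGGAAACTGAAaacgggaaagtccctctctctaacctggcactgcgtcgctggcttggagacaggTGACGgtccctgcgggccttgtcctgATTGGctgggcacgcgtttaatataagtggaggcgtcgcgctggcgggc
TAP2, chr6:32838740-32838989, minus strand: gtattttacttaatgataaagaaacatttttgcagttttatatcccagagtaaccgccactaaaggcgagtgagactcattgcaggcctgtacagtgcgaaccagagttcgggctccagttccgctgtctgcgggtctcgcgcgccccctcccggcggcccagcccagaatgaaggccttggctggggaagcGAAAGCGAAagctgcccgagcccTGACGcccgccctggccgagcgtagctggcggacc
TAP1, chr6:32853705-32853954, minus strand: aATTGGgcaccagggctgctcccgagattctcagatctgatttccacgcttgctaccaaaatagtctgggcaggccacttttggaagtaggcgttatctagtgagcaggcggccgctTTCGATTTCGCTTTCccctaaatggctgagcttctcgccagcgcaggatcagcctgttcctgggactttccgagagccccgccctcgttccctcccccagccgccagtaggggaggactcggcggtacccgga
PSMB9, chr6:32853942-32854191, plus strand: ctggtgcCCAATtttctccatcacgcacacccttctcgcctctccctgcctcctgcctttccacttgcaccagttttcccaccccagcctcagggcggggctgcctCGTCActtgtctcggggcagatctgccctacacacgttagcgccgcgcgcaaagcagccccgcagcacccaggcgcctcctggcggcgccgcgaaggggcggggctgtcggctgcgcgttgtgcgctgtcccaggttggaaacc
HLA-B, chr6:31357180-31357429, minus strand: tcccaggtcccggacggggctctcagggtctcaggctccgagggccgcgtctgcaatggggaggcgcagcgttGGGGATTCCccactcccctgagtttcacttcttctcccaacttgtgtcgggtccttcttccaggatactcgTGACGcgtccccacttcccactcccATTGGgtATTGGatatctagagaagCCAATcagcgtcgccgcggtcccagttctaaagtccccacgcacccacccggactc
HLA-F, chr6:29723184-29723433, plus strand: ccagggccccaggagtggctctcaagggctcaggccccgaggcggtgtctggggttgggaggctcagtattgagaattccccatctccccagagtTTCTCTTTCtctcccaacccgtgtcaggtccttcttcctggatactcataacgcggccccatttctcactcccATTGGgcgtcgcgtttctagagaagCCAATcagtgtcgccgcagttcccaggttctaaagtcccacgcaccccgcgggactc

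GAAANNGAA was matched in B2M (2 overlapping matches, beginning 144 bases before the start), in TAP1 (2 overlapping matches, on the opposite strand), in TAP2 and in HLA-F. It was present in 6.88% of the 35116 RefSeq promoter windows of the same length. This short core does not cover every form of the interferon-stimulated response element. The similar stretch tttcacttc stands unmarked in the windows of HLA-B and HLA-C, and it was not counted over all windows. The TAP1 matches lie between the TAP1 and PSMB9 starts, outside the 250 bases taken for PSMB9. Whether HLA-B, HLA-C and PSMB9 lack such an element was therefore not tested. TGACG was matched in B2M, TAP2, PSMB9, HLA-B and HLA-C (21.2% of all windows), and CCAAT in every matched gene except TAP2 (32.01%). GGGNNTTCC was matched in HLA-B alone, against 5.78% of all windows. This pattern does not cover longer NF-kappaB sites such as GGGACTTTCC. That stretch stands unmarked in the TAP1 sequence and, on the opposite strand, in the B2M sequence, and it was not counted over all windows. A second RefSeq window of TAP1, at a start site inside the gene, held none of the 4 patterns. The windows of HLA-B and HLA-C shared 226 of 254 aligned positions (89.0%), and those of HLA-B and HLA-F shared 204 of 254 (80.3%). A match is a stretch of letters, and says nothing of whether a factor was bound.

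B2M had the highest H3K27ac per kb of the 10 member peaks. Its promoter peak (chr15:44710217-44713976, covering the start site and coding sequence of B2M and the start site of the neighbouring gene PATL2) had a mean of 1329 normalized read counts over the 6 libraries. That is 353.4 counts per kb of peak, at percentile 91.4 of the 14007 H3K27ac promoter peaks. The promoter peak of HLA-E (chr6:30488856-30491259, covering the start site and coding sequence), a class I gene whose product is read by natural killer cells, had 144.2 counts per kb, at percentile 47.3. TAP2 followed with 83.6 counts per kb (percentile 25.2), NLRC5 with 50.6 (percentile 11.4) and the PSMB9 alternative start with 39.7 (percentile 5.04). These are means over both states, since the deposited tables give no value for a single library. Outside promoters, the intergenic peaks nearest to HLA-E and PSMB9 had 256.9 and 201.6 counts per kb, above every member promoter except that of B2M. The spread of these levels over libraries is therefore not given, and no test between neighbours in this order was made.

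H3K27ac was lost in senescent cells at 3 of the 10 peaks and gained at 0 (authors' deposited DESeq2 test, with a fold change above 1.5 at an adjusted p under 0.05). Over all 51489 peaks, 13.1% were lost and 9.47% gained by the same rule. The losses were at NLRC5, at its start site and inside the gene, and at a weak peak near the alternative start of PSMB9. At an unadjusted p under 0.05, 5 of the member peaks lay below and 1 above no change, where 23.8% of all peaks lay below and 22.6% above. The median log2 fold change was -0.36 over the 10 member peaks and 0.0075 over all peaks. A log2 fold change below 0 is less mark in senescent cells, as at the promoter of the proliferation gene MKI67, where it was -2.29 with a standard error (SE) of 0.14. The mark in fewer cells and less of it per cell cannot be told apart in bulk chromatin.

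**Figure D1:**
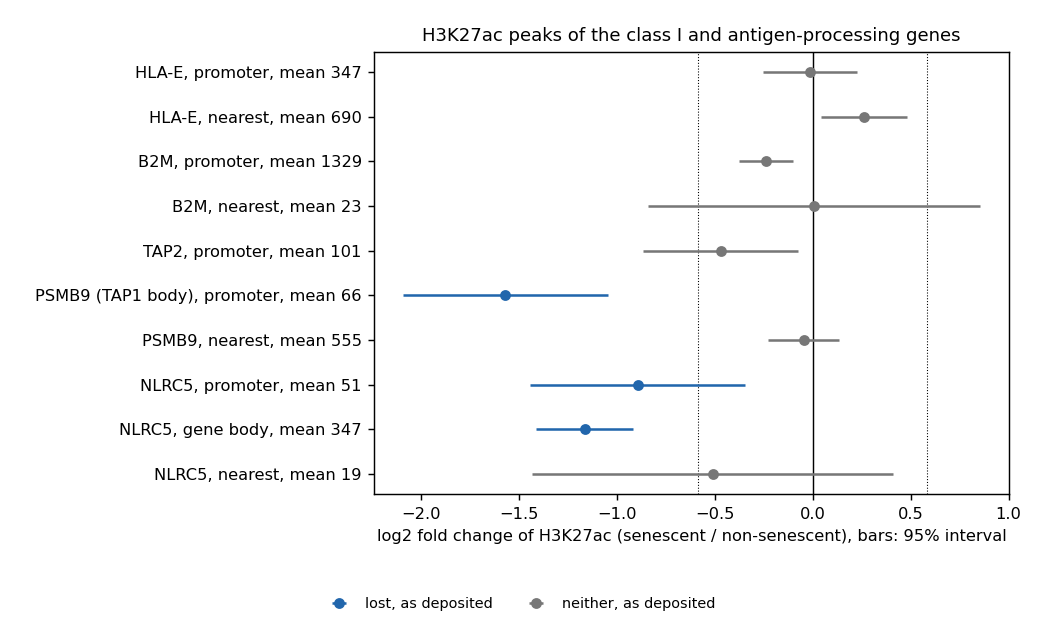
Log2 fold change of H3K27ac (horizontal axis, senescent over non-senescent) at the 10 member peaks, with 95% intervals and the mean normalized counts beside each name. Dotted lines mark a fold change of 1.5. Blue points are the 3 lost peaks, between -1.57 and -0.89, and grey points are the 7 peaks not called.

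NLRC5, the transactivator of the pathway, had 3 H3K27ac peaks. The gene lies at chr16:56989485-57083531 on the plus strand. At its start site (chr16:56988985-56989983, over the first exon), the mean was 50.6 normalized counts and the log2 fold change -0.89 (SE 0.28, deposited DESeq2 adjusted p = 0.00535), a level 1.86 times lower in senescent cells (95% interval 1.27 to 2.72). The stronger peak was inside the gene (chr16:57060302-57062916, over exons with coding sequence, 70745 bp past the canonical start and 2237 bp past an alternative start). It had a mean of 347.2 counts and a log2 fold change of -1.16 (SE 0.13, deposited DESeq2 adjusted p = 2.09e-18), 2.24 times lower (1.89 to 2.66). This peak overlapped the authors' enhancer lists of both states, where enhancers are regions with H3K27ac and the enhancer mark H3K4me1 outside promoters. It was the only member peak in either list, against 33.3% of all H3K27ac peaks. The third, upstream in an exon of CETP, had 19.5 counts and an interval that held no change (log2 fold change -0.51, 95% interval -1.43 to 0.41).

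The start site peak of NLRC5 was no longer called at a fold change above 2 or in a test against a fold change of 1.5 rather than against no change. The peak inside the gene stayed called under both.

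The immunoproteasome and transporter genes lie side by side on chromosome 6. TAP1 (chr6:32845209-32853816, minus strand) and PSMB9 (chr6:32844136-32859851, plus strand) are read in opposite directions from canonical start sites at 32853704 and 32854192. No H3K27ac peak covered this shared promoter, and the closest one ended 8441 bp from the TAP1 start. That closest peak (chr6:32843603-32845263) covered the start site and coding sequence of PSMB8, the last exon of TAP1 and an alternative start of PSMB9 at 32844136. Its mean was 66.0 normalized counts, with a log2 fold change of -1.57 (SE 0.27, deposited DESeq2 adjusted p = 4.30e-08), or 2.97 times lower in senescent cells (2.07 to 4.26). It showed the largest difference among the 10 peaks, at a low level of the mark, and it cannot be assigned to a single one of the 3 genes. Another peak nearest to PSMB9, 38836 bp beyond its start (chr6:32893028-32895778, intergenic), had 554.6 counts and a log2 fold change of -0.046 (95% interval -0.23 to 0.14).

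TAP2, which encodes the partner of TAP1 in the transporter, lies at chr6:32821833-32838739 on the minus strand. Its promoter peak (chr6:32837911-32839117, over the start site and coding sequence, shared with the readthrough gene ENSG00000250264) had a mean of 100.9 normalized counts. The log2 fold change was -0.47 (SE 0.20, deposited DESeq2 adjusted p = 0.0501), so that this peak passed neither threshold. Its 95% interval, from -0.87 to -0.075, held a fold change of 1.5. Outside promoters, the median H3K27ac log2 fold change ran from 0.077 in the decile poorest in G and C to -0.15 in the richest. With the median of its decile taken off, the TAP2 peak had a log2 fold change of -0.32 (adjusted p = 0.197, recomputed from the DESeq2 standard error). The 3 lost H3K27ac peaks stayed called after this step. Whether the trend holds at promoters was not tested, and the median over all H3K27ac promoter peaks was 0.033.

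At B2M the level was high and the difference small. The log2 fold change at the promoter was -0.24 (SE 0.071, deposited DESeq2 adjusted p = 0.00283), 1.18 times lower in senescent cells (1.07 to 1.30). It passed the adjusted p but not the fold-change threshold, and a fold change of 1.5 lay outside its interval. At a weak intergenic peak, 8268 bp past the start (chr15:44719785-44720284, 23.2 counts), the log2 fold change was 0.0069, with an interval from -0.84 to 0.85 that held a fold change of 1.5 in either direction.

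HLA-E (chr6:30489509-30494194, plus strand) was the only HLA gene with H3K27ac at its promoter. The log2 fold change there was -0.014 (SE 0.12, deposited DESeq2 adjusted p = 0.939), with an interval from -0.25 to 0.22 that left out a fold change of 1.5. An intergenic peak 25472 bp past the start (chr6:30514981-30517665, 689.7 counts) had a log2 fold change of 0.26 (SE 0.11, deposited DESeq2 adjusted p = 0.0497), 1.20 times higher. It was the only member peak above no change that passed the adjusted p, and it did not pass the fold-change threshold.

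For the 3 genes without a peak, the closest H3K27ac was far away. It lay 45.131 kb from the canonical start of HLA-F (chr6:29722775-29738528), 68.703 kb from that of HLA-C (chr6:31268749-31272130) and 153.8 kb from that of HLA-B (chr6:31353872-31367067). Of protein-coding genes with a canonical protein-coding start, 16.5%, 12.4% and 5.72% lay at least as far from a peak. Of the 19676 genes with any protein-coding transcript, 66.4% had an H3K27ac peak at a start site. HLA-B and HLA-C shared a stretch of 335.7 kb without any H3K27ac peak, which held the start sites of 6 protein-coding genes and 9 CTCF peaks. The stretch around HLA-F was 209.3 kb long and held 7 CTCF peaks. No peak in the table is not the same as no mark, since weak signal does not enter a peak list.

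These genes have close relatives and many alleles, so reads from them can be placed elsewhere or lost. Among windows of 50 bases within 2 kb of the canonical start, 3.31% for HLA-B, 5.31% for HLA-C, 6.86% for HLA-E and 7.16% for HLA-F had an exact copy elsewhere on the 24 main chromosomes of hg38. For B2M, TAP1 and PSMB9 the share was 0%, for NLRC5 1.22% and for TAP2 1.90%. With the 261 alternate-haplotype sequences of hg38 counted too, the share was 81.0% for HLA-B, 89.5% for HLA-C, 90.8% for HLA-F and 100% for HLA-E, TAP1, TAP2 and PSMB9, against 92.7% for B2M and 1.22% for NLRC5. High shares were found both for genes with an H3K27ac peak and for genes without. Exact copies do not measure reads lost where the alleles of the line differ from the reference. Whether the alignment used the alternate-haplotype sequences, and which HLA alleles the line carries, is not given in the sources used here. Their part in the missing peaks was not tested.

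CTCF, which binds DNA through zinc fingers and anchors chromatin loops, was lost at 4 of the 21 member peaks and gained at 1 (authors' deposited DESeq2 test, with a fold change above 1.5 at an adjusted p under 0.2). Over the 39485 CTCF peaks with an adjusted p, 4.28% were lost and 2.99% gained, and 20 of the 21 member peaks had one. The losses were at the shared start of TAP1 and PSMB9, at 2 peaks around HLA-F and at 1 peak near HLA-E, and the gain was near HLA-F. The median log2 fold change was -0.23 over the member peaks and -0.012 over all CTCF peaks. Log2 fold changes of CTCF also ran with base composition. Across all CTCF peaks outside promoters, the median log2 fold change ran from 0.22 in the decile of peaks poorest in G and C to -0.32 in the decile richest in them. With the median of its GC group taken from every peak, 0 of the member peaks were lost and 1 gained, against 1.7% and 0.832% of all 51457 peaks. The 4 lost peaks then stood between -0.73 and -0.43, and 2 of them remained past a fold change of 1.5 but not past the adjusted p. At an unadjusted p under 0.05 before that step, 4 member peaks lay below and 3 above no change in the DESeq2 table, where 8.33% of all peaks lay below and 7.63% above.

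**Figure D2:**
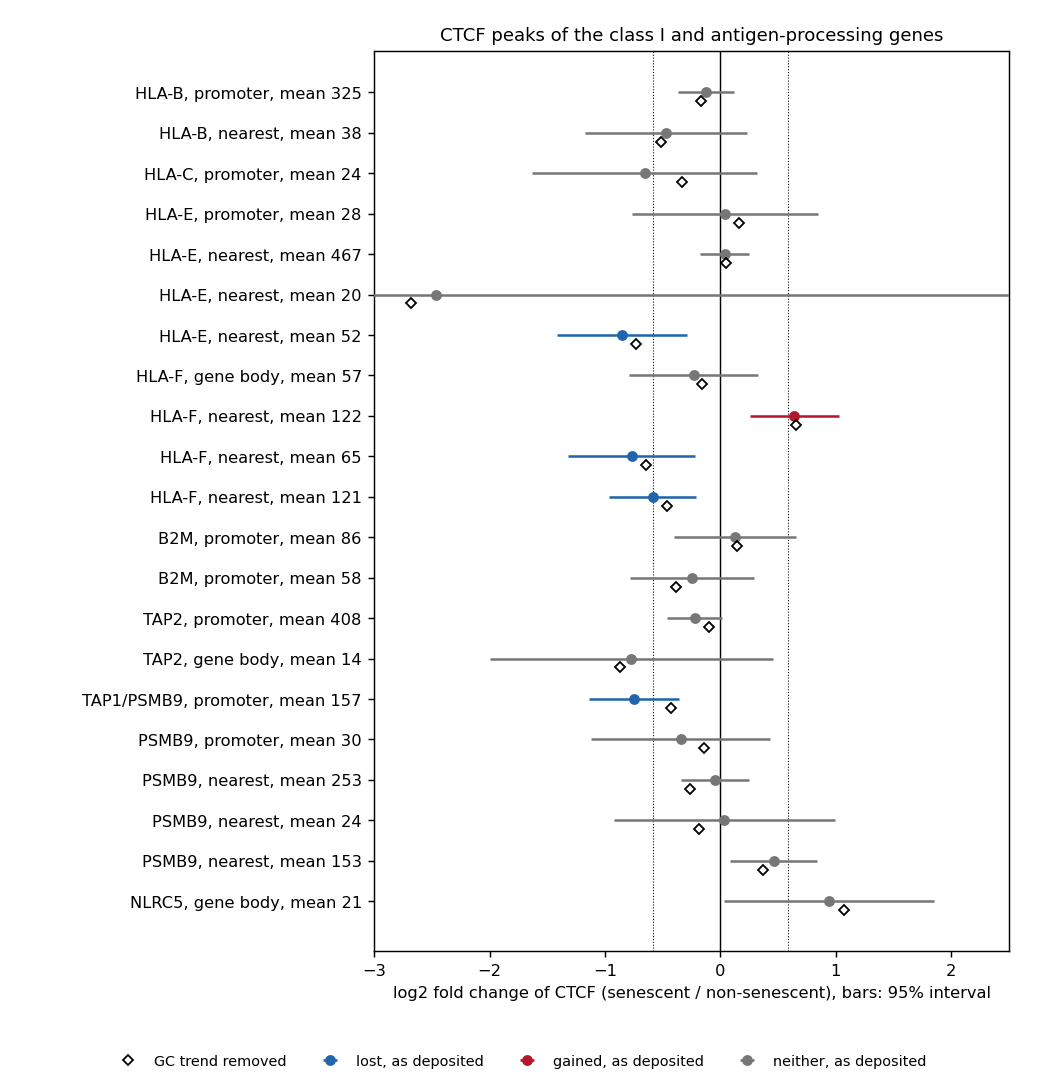
Log2 fold change of CTCF (horizontal axis, senescent over non-senescent) at the 21 member peaks, with 95% intervals and mean normalized counts beside each name; open diamonds are the values with the GC trend removed. Blue points are the 4 lost peaks and the red point the gained one, dotted lines mark a fold change of 1.5, and the interval of an HLA-E peak with 19.5 counts runs past both edges of the axis.

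CTCF peaks that bear on the results are shown by their core. The pattern searched on both strands was CCNNNAGNNGGC, the fixed letters of the CTCF core, written in capitals with 10 bases on either side. It was found in 10 of the 21 member peaks (47.6%) and in 38.3% of all CTCF peaks.
TAP1 and PSMB9 start, lost, chr6:32854112-32854143, minus strand: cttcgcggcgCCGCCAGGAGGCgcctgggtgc
TAP2 promoter, not called, chr6:32838825-32838856, plus strand: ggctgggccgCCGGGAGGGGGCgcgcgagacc
HLA-F upstream, gained, chr6:29705474-29705505, minus strand: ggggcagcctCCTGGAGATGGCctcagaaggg
HLA-F upstream, gained, chr6:29705808-29705839, plus strand: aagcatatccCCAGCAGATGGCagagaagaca
HLA-B alternative start, not called, chr6:31367058-31367089, minus strand: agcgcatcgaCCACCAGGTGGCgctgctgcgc

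The CTCF peak at the shared start of TAP1 and PSMB9 (chr6:32853536-32854578) covered both canonical start sites and coding sequence of both genes, where no H3K27ac peak was found. It had a mean of 156.6 normalized counts and a log2 fold change of -0.75 (SE 0.20, deposited DESeq2 adjusted p = 0.0129), 1.68 times lower in senescent cells (1.28 to 2.20). Its core lay 59 bp before the PSMB9 start, within the PSMB9 sequence shown above. The peak was 64.4% G or C, and with the GC trend removed its log2 fold change was -0.43 (adjusted p = 0.380, recomputed from the DESeq2 standard error), no longer called. The neighbouring CTCF peak at the TAP2 promoter (chr6:32838193-32839551) was the highest per kb among the members, with 299.9 counts per kb (percentile 98.7 of all CTCF peaks), and its core lay 96 bp before the TAP2 start. Its log2 fold change was -0.22 (SE 0.12, deposited DESeq2 adjusted p = 0.312), with an interval from -0.46 to 0.018.

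PSMB9 had 4 more CTCF peaks and TAP2 1 more, none of them called. They ran from 13.8 to 253.3 mean counts and from -0.77 to 0.46 in log2 fold change. The peak of 13.8 counts, in the TAP2 gene body, was deposited without an adjusted p.

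**Figure D3:**
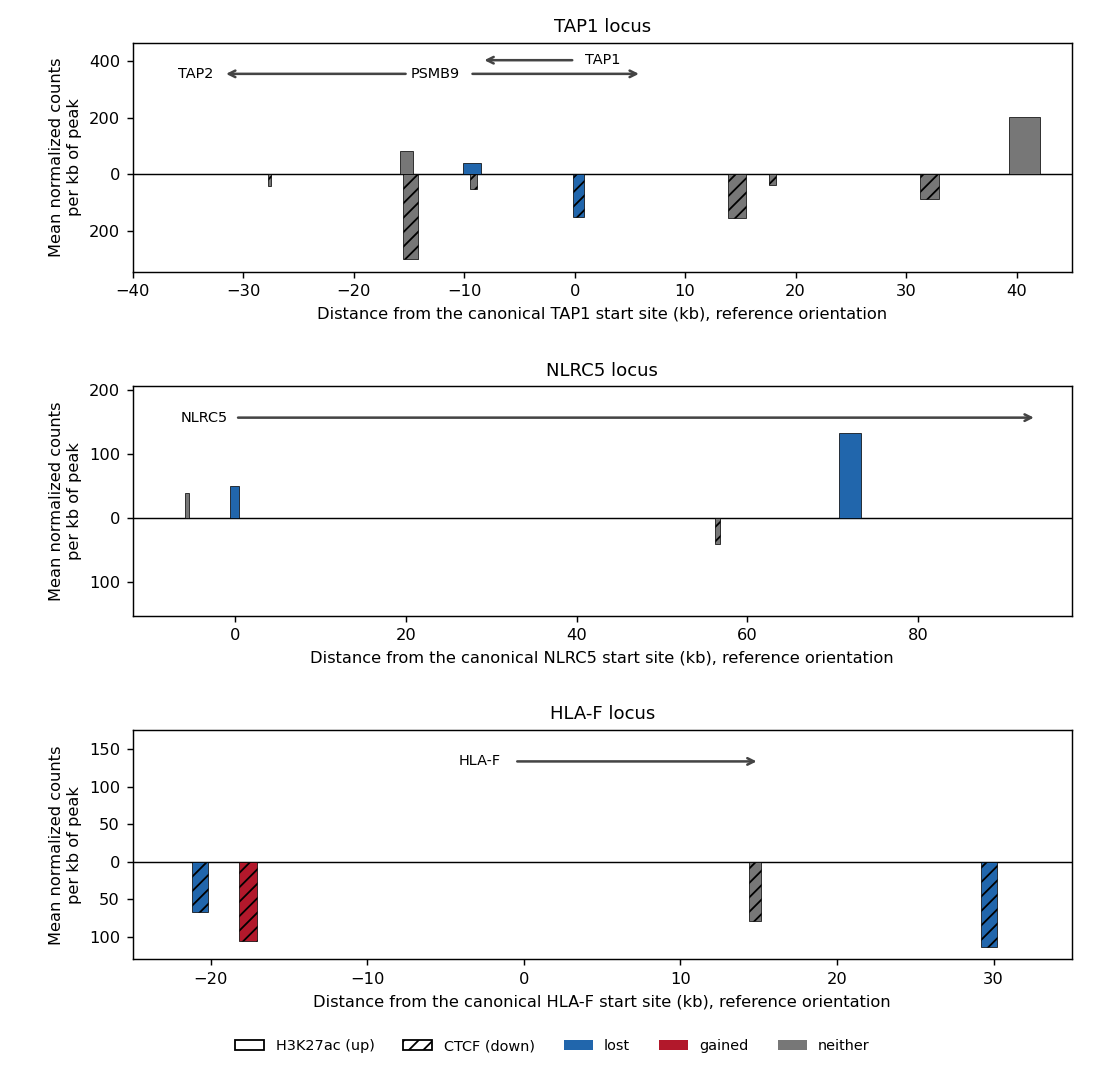
Peaks along the TAP1, NLRC5 and HLA-F loci, by distance from the canonical start site (horizontal axis, kb). Bars drawn upward are H3K27ac and hatched bars drawn downward are CTCF, with mean normalized counts per kb of peak as bar length and the peak's extent as bar width. Blue is lost, red is gained and grey neither, and arrows are genes in the direction of transcription. The lost CTCF peak stands at 0 in the TAP1 map, where no H3K27ac bar is drawn, and the HLA-F map has no H3K27ac bar.

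Around HLA-F, 3 of its 4 CTCF peaks were called, in both directions. The gained peak (chr6:29705211-29706363, intergenic, 17071 bp before the canonical start, with the 2 cores shown above) had 121.7 counts and a log2 fold change of 0.64 (SE 0.20, deposited DESeq2 adjusted p = 0.0396), 1.56 times higher (1.19 to 2.04). Further out, a lost peak (chr6:29702246-29703223, 65.4 counts) had a log2 fold change of -0.77 (SE 0.28, deposited DESeq2 adjusted p = 0.0938). The other lost peak lay beyond the gene (chr6:29752601-29753673, 121.3 counts), with a log2 fold change of -0.588 (SE 0.19, deposited DESeq2 adjusted p = 0.0580), just past the threshold of 0.585. Centred on the median of all CTCF peaks, its log2 fold change was -0.576 and it was not called. Neither lost peak held the core. The gained peak stayed called with the GC trend removed (log2 fold change 0.65, adjusted p = 0.0707 from the DESeq2 standard error). The lost peaks then had -0.64 (adjusted p = 0.336 from the DESeq2 standard error), still past a fold change of 1.5, and -0.46, and neither was called. The peak at the end of the gene (chr6:29737837-29738548, 56.5 counts) had a log2 fold change of -0.23 and an interval from -0.79 to 0.32.

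HLA-E had 4 CTCF peaks. The lost one was intergenic, 35189 bp before the start (chr6:30453546-30454320, 52.4 counts, no core), with a log2 fold change of -0.86 (SE 0.29, deposited DESeq2 adjusted p = 0.0660). It was 53.7% G or C and was not called with the GC trend removed (adjusted p = 0.253 from the DESeq2 standard error), with a log2 fold change of -0.73 that still passed a fold change of 1.5. The strongest, 5095 bp before the start (chr6:30480904-30484414, 467.5 counts), stood at a log2 fold change of 0.038 with an interval from -0.17 to 0.25. The promoter peak (chr6:30490347-30490846, 27.9 counts, in exons) had 0.039, with an interval from -0.77 to 0.85. The last, of 19.5 counts, had an SE of 2.57 and carries no information on direction.

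HLA-B and HLA-C, without H3K27ac, did have CTCF. The HLA-B peak classed as promoter (chr6:31366326-31368196, 324.6 counts, 173.5 per kb) lay at an alternative start site 9147 bp from the canonical start. Its log2 fold change was -0.12 (SE 0.12, deposited DESeq2 adjusted p = 0.615), with an interval from -0.37 to 0.12 that left out a fold change of 1.5. The HLA-C peak (chr6:31271489-31271959, over coding exons, 133 bp into the gene) had 23.6 counts and a log2 fold change of -0.65 (SE 0.50, deposited DESeq2 adjusted p = 0.487). Its interval, from -1.63 to 0.32, held both no change and a loss of more than a fold change of 1.5. At B2M, 2 promoter peaks (85.8 and 57.6 counts) had log2 fold changes of 0.13 and -0.24, with SE of 0.27 and 0.27. The single NLRC5 CTCF peak, in the gene body (chr16:57045781-57046306, 21.1 counts), had a log2 fold change of 0.94 (SE 0.46, deposited DESeq2 adjusted p = 0.250) and was not called.

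H3K27ac and CTCF peaks shared bases at 4 of the 10 H3K27ac peaks, those at the B2M, HLA-E and TAP2 promoters and at the PSMB8 start, against 26.9% of all H3K27ac peaks. Of the 21 CTCF member peaks, 5 shared bases with an H3K27ac peak, against 30.4% of all CTCF peaks. None of the called CTCF peaks did so, but they are too few to compare with that share. The Rb list, 2435 regions with more of the retinoblastoma protein in senescent cells, overlapped 0 of the member peaks of either mark, against 0.691% of all H3K27ac peaks and 0.286% of all CTCF peaks.

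The rest of the pathway was read at promoters, each gene represented by its promoter peak with the highest mean count. Of 28 genes, 25 had an H3K27ac promoter peak, and 2 of these peaks were lost and 0 gained (deposited DESeq2 test), against 9.81% and 4.53% of the 14007 promoter peaks. At an unadjusted p under 0.05, 4 lay below and 3 above no change, against 22.4% and 27% of promoter peaks. The genes without such a peak were HLA-G, HFE and CIITA, the class II counterpart of NLRC5. The median log2 fold change over the 25 was -0.018, and that over all promoter peaks was 0.033.

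Among 11 genes of peptide processing and loading, all had a promoter peak, and the losses were PSMB8 and ERAP2. PSMB8 is at the peak already given for PSMB9 and TAP1, with a log2 fold change of -1.57, the largest of the group. ERAP2, an aminopeptidase that trims peptides in the endoplasmic reticulum, had 101.0 counts and a log2 fold change of -1.11 (SE 0.21, deposited DESeq2 adjusted p = 1.71e-06, chr5:96876068-96877319). Its relative ERAP1 had 1125 counts and a log2 fold change of -0.079 (SE 0.082). The chaperones CALR, CANX, PDIA3, TAPBP and TAPBPL had between 1124 and 1552 counts and log2 fold changes from -0.19 to 0.21. Of the class I relatives, MR1, which presents vitamin B metabolites, alone had a promoter peak, with a log2 fold change of -0.022 (SE 0.14).

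Of 14 regulators, 13 had an H3K27ac promoter peak and 0 were called, with 2 above and 1 below no change at an unadjusted p under 0.05. The largest difference was at RELA, a subunit of NF-kappaB, with 833.2 counts and a log2 fold change of 0.54 (SE 0.080, deposited DESeq2 adjusted p = 2.56e-10), 1.45 times higher and just under the fold-change threshold. IRF9, part of the complex that binds interferon-stimulated response elements, had 0.46 (SE 0.14, deposited DESeq2 adjusted p = 0.00596). RFX5, a partner of NLRC5 at class I promoters, had -0.38 (SE 0.10, deposited DESeq2 adjusted p = 9.57e-04). STAT2, IRF1 and IRF2, which act in the interferon response, had log2 fold changes from -0.13 to -0.0040.

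**Figure D4:**
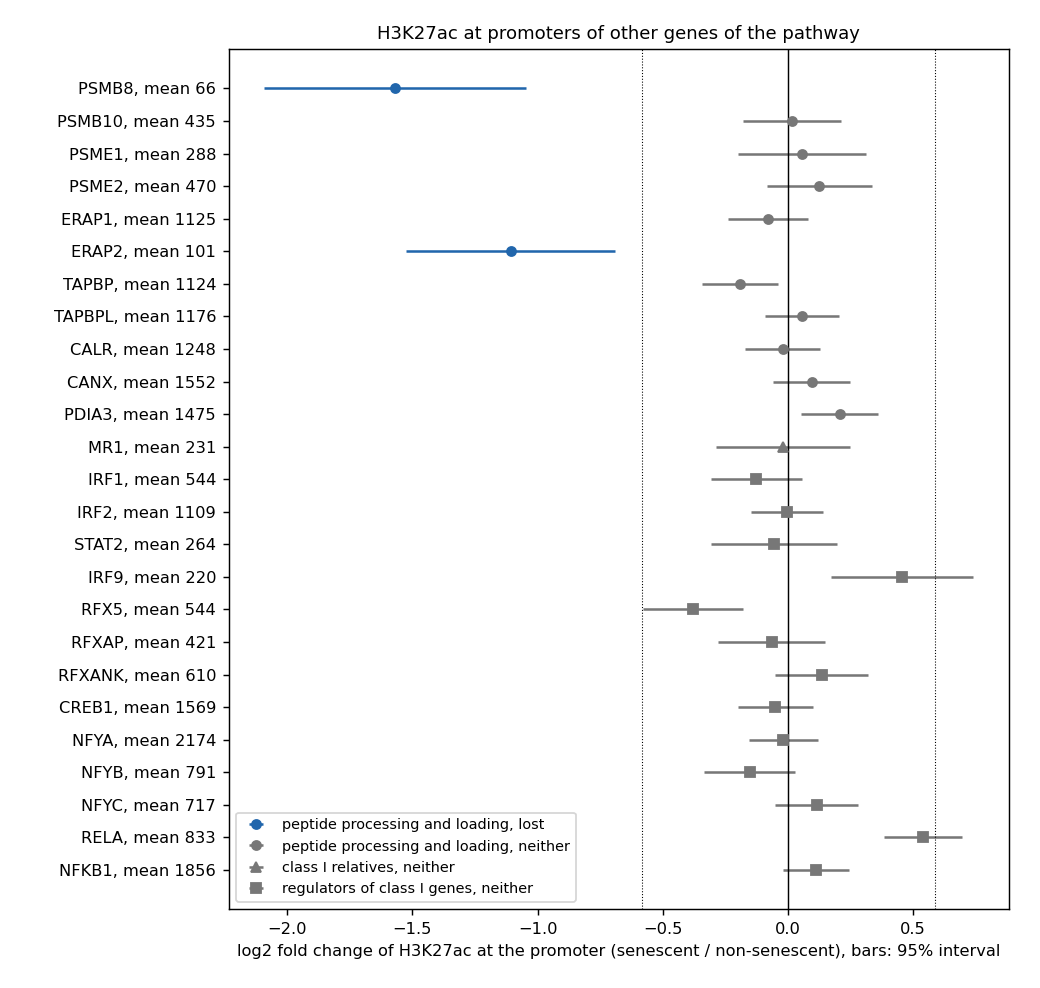
Log2 fold change of H3K27ac (horizontal axis, senescent over non-senescent) at the promoters of 25 other genes of the pathway, with 95% intervals and mean normalized counts beside each name. Circles are peptide processing and loading, the triangle a class I relative and squares regulators; dotted lines mark a fold change of 1.5. PSMB8 and ERAP2, in blue, are the lost promoters, and RELA is the highest point at 0.54.

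For CTCF, 14 of the 28 genes had a promoter peak, and 0 were lost and 0 gained in the DESeq2 table. The peaks of TAPBP, HFE, IRF2 and CREB1 had no adjusted p, so that they could not be called. Among the 8567 CTCF promoter peaks with an adjusted p, 5.71% were lost and 0.63% gained. At an unadjusted p under 0.05, 1 of the 14 peaks lay below and 0 above no change, against 13.3% and 2.06% of promoter peaks. Among regulators the largest difference was at CREB1, a factor of the X2 box, with 17.1 counts and a log2 fold change of -0.88 (SE 0.50, no adjusted p). Of peptide processing and loading genes, the largest difference was at TAPBP (-0.54, SE 0.68, no adjusted p), and the only class I relative with a peak was HFE (-0.61, SE 0.69, no adjusted p).

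The cells carried the chromatin of the labelled cell type. All 12 beta-cell markers had an H3K27ac peak at a start site, the highest being PAX6 with 16247 counts, while 0 of 6 immune, 0 of 3 endothelial and 0 of 4 fibroblast markers did. CD74 and PTPRC, which mark cells that present antigen or other leukocytes, were among those without a peak. Of the 12 beta-cell promoter peaks, 1 was lost in senescent cells (PCSK1, log2 fold change -1.41, SE 0.085) and 0 were gained. Over all promoter peaks, 9.81% were lost and 4.53% gained. At an unadjusted p under 0.05 in the deposited DESeq2 test, 5 of the 12 lay above and 4 below no change, against 27% and 22.4% of promoter peaks.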

How the data were processed

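ChIP-seq (sequencing of immunoprecipitated chromatin) gave 40 libraries of EndoC-βH3 cells, and the labels of each set its antibody and state. H3K27ac and CTCF had 3 libraries per state, H3K4me1 and Rb 2, each with its own input. Per the study's methods, the authors aligned trimmed reads to hg38 with Bowtie2, used HOMER for H3K27ac peaks and MACS2 for CTCF peaks, both against input, filtered CTCF peaks for the motif, and compared raw read counts in peaks with DESeq2. At the study's thresholds, 1690 of the deposited CTCF peaks were lost and 1180 gained, more than the study gives for sites with the motif. The CTCF peaks used here thus do not appear to be limited to those sites. Which member peaks hold the study's motif was not tested. The submitters' processing notes also name SAMtools and deepTools. Versions, the treatment of reads that map to several places and the way replicates were merged are not given in the sources used here.

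The deposited signal is the authors' mean over libraries of counts divided by size factors. The deposited log2 fold changes (senescent over non-senescent) and their standard errors, and the deposited p-value and adjusted p-value of each peak, are the authors' own test. No values per library were used, so the total count per library is not known and no count model was fitted; a refit had been planned only for tables with counts. The comparison columns were used because they are the only measurements in the tables. Deposited region starts count from 0 and were raised by 1. A change of a mark over the whole genome is absorbed by the size factors and is not visible here.

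Thresholds were the study's: a fold change above 1.5 and an adjusted p under 0.05 (H3K27ac) or 0.2 (CTCF). Intervals are 95%, from the standard error. Start sites, exons and coding sequence were those of GENCODE 44 protein-coding transcripts, and all 24 chromosome names matched hg38 with 0 peaks past a chromosome end. Overlap was at least 1 bp. The GC trend was the median log2 fold change in each of 10 equal groups of peaks by GC content, from peaks outside promoters, and p-values were then recomputed and adjusted over all peaks. It was taken off promoter peaks too, and whether it holds there was not tested. The functions were tested on simulated data. Python 3.11.15 was used with pandas 2.3.3, numpy 2.4.6 and scipy 1.17.1. The members and gene lists were chosen with earlier results of these data known. All 9 genes are named, with their strongest promoter peak and every called peak in full, and of the pathway list the called promoters and the largest difference in each group; IRF9, RFX5, ERAP1 and the grouped chaperones and interferon regulators were named after their values were seen, as were the uncalled member peaks given singly. A gene of the pathway list and its values are not reported here and are left out of its counts.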

Additional observations from a re-analysis of the deposited data

How the results depend on the processing

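No paired analysis was possible because the tables hold no values per library, and the planned fits with a replicate block or without each replicate were not run for the same reason, so whether a single library decides a call is not known. In the 11 alternatives run for each mark, the count of H3K27ac losses ran from 2 to 4. It was 2 at a fold change above 2 and in a test against a fold change of 1.5, where the NLRC5 start was no longer called. Without a fold-change threshold it was 4, and 1 gain appeared (a peak near HLA-E). The CTCF calls moved more. A fold change above 2 left 0 lost and 0 gained, a test against a fold change of 1.5 left 0 and 0, and an adjusted p under 0.05 left 1 lost (the TAP1 and PSMB9 start). With the GC trend removed 0 were lost, with promoters and gene bodies only 1 was lost and 0 gained, and without a fold-change threshold 2 were gained. Of 248 values of single peaks under the alternatives, 225 stayed on the same side of the thresholds, 20 lost a call and 3 became called, each without a fold-change threshold (B2M promoter and the peak near HLA-E for H3K27ac, a peak nearest to PSMB9 for CTCF). Standard errors reached 0.47 for H3K27ac and 2.57 for CTCF, each at a peak with a mean of 19.5 counts, and the part of sequencing depth in them was not tested, since counts per library are not known.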
